A study of Mus musculus with 27 samples.

Results

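The genes described are the G1 cyclins and cyclin-dependent kinase (CDK) inhibitors of the mouse liver, together with the growth regulator Myc, measured in 3 lobular zones before and during pregnancy. They were chosen by symbol and comprise 10 of the 21823 genes in the expression table: the D-type cyclins Ccnd1, Ccnd2 and Ccnd3, the E-type cyclins Ccne1 and Ccne2, the inhibitors Cdkn1a, Cdkn1b, Cdkn1c and Cdkn2c, and Myc. Liver came from female wild-type mice labelled C57BL/6 (C57BL/6N in the study's methods), which were either non-pregnant (NP), or pregnant and taken 8 (dpc8) or 16 days (dpc16) post coitum, and no ages are given in the labels. Areas of frozen sections were isolated by laser microdissection, in which a laser separates tissue under the microscope, from zone 1 around the portal vein, zone 3 around the central vein and zone 2 between them. Stage and zone together define 9 groups of 3 libraries, 27 in all. A microdissected area holds every cell type of that zone, so fewer cells of a type and less RNA per cell cannot be told apart.

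A resting cell passes from G1 into DNA synthesis when D-type cyclins activate CDK4 and CDK6 and E-type cyclins activate CDK2, and these kinases together phosphorylate the retinoblastoma protein and release E2F transcription factors. The INK4 inhibitors, among them p18 (Cdkn2c), bind CDK4 and CDK6. The CIP/KIP inhibitors p21 (Cdkn1a), p27 (Cdkn1b) and p57 (Cdkn1c) bind cyclin-CDK complexes and restrain CDK2 in particular. Hepatocytes are mostly quiescent, and cyclin D1 is known as the D-type cyclin induced when they re-enter the cycle after loss of liver tissue.

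Expression is given in FPKM, for which fragment numbers are divided by the length of the transcript and by the total of mapped fragments. Differences between groups are on the scale log2(FPKM + 1), from limma fitted over all 12952 genes that passed a filter on low values, and p-values were adjusted over those genes in each comparison with a threshold of 0.05. All 10 members passed the filter. Where all libraries of a group are said to lie above or below those of another, the share of all genes that separate likewise was not determined. The depth of the libraries, estimated from the smallest steps in their values, was 7.56 to 33.66 M reads (M for mega), so that 1 FPKM corresponds to 26.8 to 119.2 reads for Ccnd1 and to 13.6 to 60.6 reads for Ccne1. Zone labels were checked with hepatocyte markers: averaged over stages, 10 of 10 periportal genes were higher and 10 of 10 pericentral genes lower in zone 1 than in zone 3. All mice are labelled female, yet in 6 libraries 4 genes of the Y chromosome summed to between 7.92 and 23.18 FPKM, against at most 2.97 in the other 21. These 6 libraries comprise replicate 1 of zone 1 in NP and in dpc8 mice, replicate 2 of NP zone 3 and of dpc8 zone 2, and replicate 3 of zones 2 and 3 in dpc16 mice. In them 12 connective tissue and smooth muscle markers summed to 1025 to 4837 FPKM, against 87.81 to 601 in the 21 others, and none of the 12 was at 0 in either set. Results are given for all 27 libraries and, where the call of a member differed, for the 21. For the lists of further genes the 21 are not given in each case.

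Among the D-type cyclins, Ccnd1 (chromosome 7, 144929931 to 144939925, minus strand, mm10), which encodes cyclin D1, was lower at dpc16 than at both other stages. In zone 1 its FPKM was 58.9, 39.2 and 46.1 in the NP libraries, 78.3, 39.5 and 52.2 in the dpc8 libraries, and 12.91, 12.03 and 17.33 in the dpc16 libraries. All 3 dpc16 libraries of zone 1 lay below every NP and dpc8 library, and the dpc16 mean was 3.41-fold lower than that of NP and 4.02-fold lower than that of dpc8. In zone 2 the values were 42.9, 74.4 and 71.4 for NP, 61.6, 95.03 and 35.6 for dpc8, and 15.4, 19.7 and 20.97 for dpc16. Here, too, the dpc16 libraries did not overlap with those of the other stages, with means of 18.7 ± 2.94 against 62.9 ± 17.4 FPKM for NP and 64.1 ± 29.8 FPKM for dpc8 (SD, n = 3 each). In zone 3 the FPKM was 13.0, 45.0 and 26.9 for NP, 24.3, 20.6 and 8.06 for dpc8, and 13.9, 13.0 and 26.4 for dpc16. The 3 stages overlapped in zone 3.

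Averaged over the zones, Ccnd1 fell at dpc16 by 1.31 log2 units against NP (SE 0.25, 95% confidence interval -1.82 to -0.79, limma adjusted p = 0.00109). Against dpc8 the log2 difference was -1.15, with a limma adjusted p of 0.00364. The comparisons with NP and with dpc8 share the dpc16 libraries. Of all genes tested, 11.8% were called in the first and 11.1% in the second, and 6.15% and 5.69% were called lower. In the 21 libraries Ccnd1 was also called in both, with log2 differences of -1.25 (limma adjusted p = 0.00155) and -1.09 (limma adjusted p = 0.00413).

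Within single zones the calls for Ccnd1 were closer to the threshold. In zone 1 the fall from dpc8 to dpc16 was called, with a log2 difference of -1.89 and a limma adjusted p of 0.0223, while 2.01% of all genes were called. The call was lost without dpc8 zone 1 replicate 1 (limma adjusted p = 0.110), dpc8 zone 1 replicate 3 (0.0646), dpc16 zone 1 replicate 1 (0.0967) or dpc16 zone 1 replicate 2 (0.106). In zone 2 the difference between dpc16 and NP was -1.67 log2 units (limma adjusted p = 0.0365, with 2.66% of genes called), and of 6 fits that each omitted 1 library, 5 lost the call, with limma adjusted p-values up to 0.132. The difference between dpc16 and NP in zone 1, -1.70 log2 units, just missed the threshold with a limma adjusted p of 0.05005, where 1.37% of genes were called, and passed in the 21 libraries (-1.54 log2 units, limma adjusted p = 0.0475). It passed in 7 of 10 alternative fits in all, and in 0 of 6 that each omitted 1 library. From dpc8 to dpc16 the log2 difference in zone 2 was -1.63 and did not pass (limma adjusted p = 0.0604). In zone 3 the log2 difference was -0.55 against NP, with a 95% confidence interval from -1.44 to 0.34 and 1.32% of genes called, and 0.07 against dpc8 (-0.82 to 0.96), so that the fall from dpc8 averaged over zones includes a zone in which the means of both stages were close. The dpc16 change was more negative in zone 1 than in zone 3 by 1.15 log2 units, but the interval of this difference ran from -2.41 to 0.11 and its limma adjusted p was 0.993. The fall was therefore not shown to differ between zones.

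**Figure D1:**
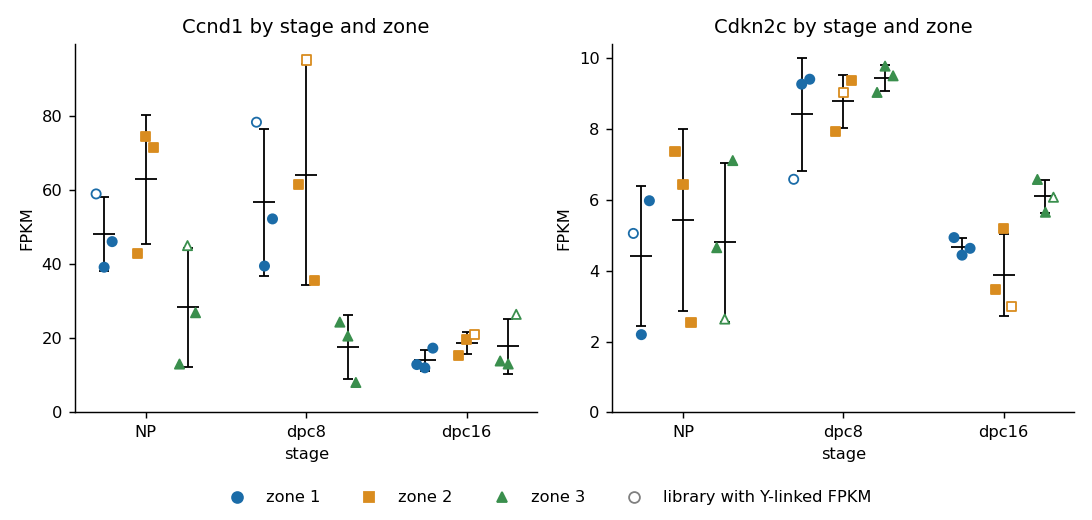
FPKM of Ccnd1 and Cdkn2c (vertical axes, from 0) by stage (horizontal axes) and zone (colour and shape), 1 point per library, with the mean and SD of each group of 3. Open points are the libraries with Y-linked FPKM. For Ccnd1 the 9 dpc16 libraries lie between 12.03 and 26.45 FPKM, while zones 1 and 2 of NP and dpc8 mice lie between 35.6 and 95.03. For Cdkn2c the 9 dpc8 libraries lie above all 9 dpc16 libraries.

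Between NP and dpc8 mice Ccnd1 was not called. The log2 difference averaged over zones was -0.15, with a 95% confidence interval from -0.67 to 0.36 and a limma adjusted p of 1.0, and 0.108% of all genes were called in this comparison. The mean ratio of dpc8 to NP was 1.179 in zone 1, 1.02 in zone 2 and 0.624 in zone 3.

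Markers of other cells moved in the comparisons in which Ccnd1 was called. Of 9 Kupffer cell and macrophage markers, 6 were lower at dpc16 than in NP mice and 6 were lower than at dpc8, each averaged over zones, where 6.15% and 5.69% of all genes were called lower. Their summed FPKM was 164 to 210 in NP zone 1, 279 to 458 in NP zone 2 and 119 to 142 in NP zone 3, against 139 to 186, 68.45 to 237 and 41.29 to 92.84 in the same zones at dpc16. Of 8 hepatocyte markers 7 are in the table, and their sum was 203800 to 257100 FPKM in zone 1, 56710 to 259900 in zone 2 and 77770 to 185100 in zone 3 at dpc16, against 45370 to 116700, 71680 to 100200 and 49140 to 59310 in the same zones of NP mice. The stages thus overlapped in zone 2 and not in zones 1 and 3. Averaged over zones, 3 of the 7 were called higher and 1 lower at dpc16 than in NP mice, against 5.65% and 6.15% of all genes. Of 12 connective tissue and smooth muscle markers, limma called 0 between dpc16 and NP in the 27 libraries, with 1 at an unadjusted p under 0.05, and 1 lower in the 21 libraries. No marker of these 3 lists was at 0 throughout a group. The part of these markers in the Ccnd1 result was not tested.

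Across the lobule, Ccnd1 was higher in the midlobular zone than around the central vein. Averaged over the stages, the log2 difference between zone 2 and zone 3 was 1.06 (95% confidence interval 0.55 to 1.58, limma adjusted p = 0.0215), in a comparison in which 1.88% of all genes were called and 0.811% were higher in zone 2. Leaving out 1 library ended this call in 7 of 18 fits, with limma adjusted p-values from 0.00757 to 0.0587. The difference between zones 1 and 3 was 0.77 log2 units and was not called with 27 libraries (limma adjusted p = 0.0755, with 5.59% of genes called). It was called with the 21 libraries, at 0.88 log2 units and a limma adjusted p of 0.0293, where 8.18% of genes were called.

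With 27 libraries the ratio of zone means was largest in dpc8 mice, although the dpc8 change was not called different between zones 1 and 3 (0.82 log2 units, limma adjusted p = 1). In the 21 libraries the log2 difference between zones 2 and 3 was larger in NP (1.65) than in dpc8 mice (1.49). All 3 dpc8 libraries of zone 1 and all 3 of zone 2 lay above the highest dpc8 library of zone 3, and the means of zones 1 and 2 were 3.21 and 3.63 times that of zone 3. The log2 difference was 1.70 for zone 1 (limma adjusted p = 0.0448, with 1.61% of genes called) and 1.82 for zone 2 (limma adjusted p = 0.0873, with 0.347% called). The zone 1 call was lost in the 21 libraries (log2 difference 1.44, limma adjusted p = 0.0688) and, of 6 fits that each omitted 1 library, in 5. It passed in 5 of 10 alternative fits in all, and not with the replicate number as a fixed block. In dpc16 mice the 3 zones overlapped, with means of 14.1 ± 2.85, 18.7 ± 2.94 and 17.8 ± 7.51 FPKM in zones 1, 2 and 3 (SD, n = 3 each). Kupffer cell and macrophage markers were also higher in zone 2 than in zone 3, with 5 of 9 called against 0.811% of all genes, and their part in this difference was not tested.

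Ccnd1 is often listed as a target of Wnt/β-catenin signalling, the pathway that maintains pericentral gene expression in the liver. Of 11 other Wnt targets, 10 passed the filter, and all 10 were called lower in zone 1 than in zone 3, against 2.89% of all genes, with a median log2 difference of -2.13. All 10 were also called lower in zone 2 than in zone 3, against 1.07% of all genes, with a median of -1.66, while the median of all genes was 0.04 and 0.03 in these comparisons. Among them Glul, which encodes glutamine synthetase, had a log2 difference of -5.32 between zones 1 and 3, Tbx3 of -3.73 and Axin2, a feedback inhibitor of the pathway, of -2.88. The difference of smallest size was that of Znrf3, at -1.01. Ccnd1 had differences of the opposite sign in both comparisons.

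**Figure D2:**
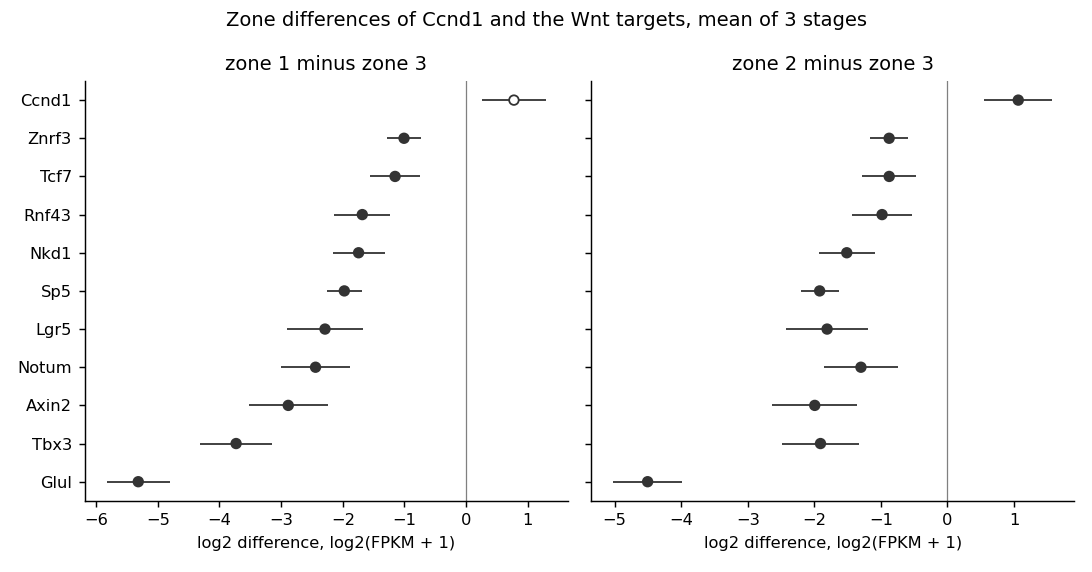
Log2 differences (horizontal axes, log2(FPKM + 1) scale) of Ccnd1 and 10 Wnt targets (rows) between zones 1 and 3 and between zones 2 and 3, averaged over 3 stages, with 95% confidence intervals. Filled points passed the threshold. Ccnd1 lies at 0.77 and 1.06 and is the sole gene shown to the right of 0.

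Ccnd3 (chromosome 17, 47505051 to 47599691, plus strand), which encodes cyclin D3, was not called in any stage comparison of the 27 libraries. In zone 1 its FPKM was 37.2, 18.1 and 28.3 for NP, 58.5, 35.7 and 20.7 for dpc8, and 17.4, 16.9 and 16.7 for dpc16. The dpc16 libraries of zone 1 lay close together and below all others of that zone. In zones 2 and 3 the dpc16 libraries with Y-linked FPKM, at 39.4 and 40.9, stood above the other 4, which lay between 12.9 and 19.2. Averaged over zones, the log2 difference between dpc16 and NP was -0.43 with 27 libraries (limma adjusted p = 0.298) and -0.61 with 21 (limma adjusted p = 0.0216, with 16.6% of genes called). Against dpc8 it was -0.59 with 27 libraries (limma adjusted p = 0.126) and -0.63 with 21 (limma adjusted p = 0.0173, with 18.7% of genes called). In the 21 libraries the range at dpc16 was 12.9 to 19.2 FPKM (median 16.9), against 18.1 to 37.6 (median 28.3) in NP and 17.5 to 41.1 (median 26.4) in dpc8 mice.

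Ccnd2 (chromosome 6, 127125162 to 127152193, minus strand), which encodes cyclin D2, separated the 6 libraries with Y-linked FPKM from the rest. It was 46.5 to 209.9 FPKM in the 6 libraries (median 119.8) and 2.04 to 20.0 in the 21 others (median 7.49), with no overlap. Averaged over zones, the log2 difference between dpc16 and NP was -0.50 with a 95% confidence interval from -2.13 to 1.12 (limma adjusted p = 0.776). With the 21 libraries it was -0.80, with a narrower interval from -1.55 to -0.05, and was not called either (limma adjusted p = 0.145). Within zone 3 it was -1.64 in these libraries (-3.01 to -0.26, limma adjusted p = 0.220).

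In the 21 libraries, which are unevenly spread over the zones, the median share of Ccnd1 in the summed FPKM of the D-type cyclins was 54.8% in NP and 42.9% in dpc8 mice, where it was at most 35.7% in zone 3 and 42.9% to 64.9% in zones 1 and 2. The order differed by zone: in all 3 dpc8 libraries of zone 3 Ccnd3 had the larger share, at 57.3% to 68.8%, while in the other dpc8 libraries Ccnd1 did. At dpc16 the median share of Ccnd1 was 36.5% and that of Ccnd3 was 49.4%, while Ccnd2 took 15.2%. The Ccnd1 shares ranged from 21.1% to 65.7% in NP and from 32.0% to 51.3% in dpc16 libraries, so these ranges overlapped.

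The E-type cyclins were scarce. Ccne1 (chromosome 7, 38097984 to 38107534, minus strand), which encodes cyclin E1, was at or under 6.90 FPKM in every library. In zone 2 of NP mice it was 0.417, 0.0709 and 0 FPKM, levels that rest on few reads, against 4.25, 4.18 and 0.720 at dpc8 and 4.35, 1.047 and 6.42 at dpc16. Both pregnant groups of zone 2 therefore lay above the NP group without overlap, but neither difference was called (limma adjusted p = 0.924 at dpc8 and 0.0917 at dpc16). Averaged over zones the log2 differences from NP were 0.91 at dpc8 (95% confidence interval 0.20 to 1.63, limma adjusted p = 0.613) and 0.87 at dpc16 (0.16 to 1.58, limma adjusted p = 0.111), and neither passed the threshold. Without the libraries with Y-linked FPKM the dpc16 difference was 0.95, with a limma adjusted p of 0.0543.

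Ccne2 (chromosome 4, 11191351 to 11204779, plus strand), which encodes cyclin E2, ranged from 0.104 to 7.93 FPKM. In dpc8 mice its zone 1 libraries, at 6.43, 3.49 and 4.81 FPKM, lay above the zone 3 libraries, at 1.93, 0.753 and 1.29. No stage or zone comparison of Ccne2 was called, and its log2 difference between dpc16 and NP was 0.28 (95% confidence interval -0.52 to 1.08).

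**Figure D3:**
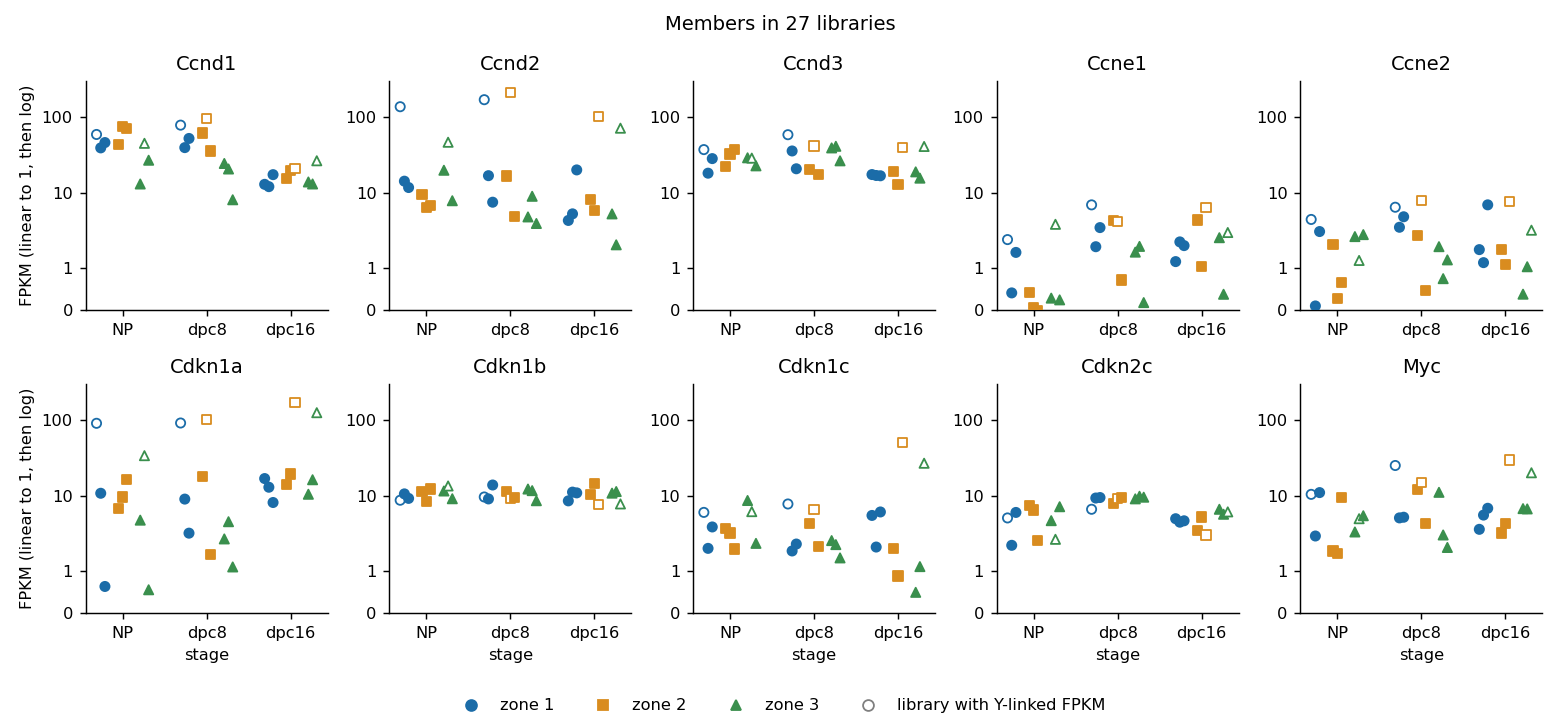
FPKM of the 10 genes in 27 libraries (vertical axes, linear to 1 and logarithmic above) by stage (horizontal axes) and zone (colour and shape). Open points are the 6 libraries with Y-linked FPKM. Cdkn1b stays between 7.66 and 14.4 FPKM throughout, while Ccnd2 and Cdkn1a have 6 open points above all 21 filled ones.

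Of the inhibitors, Cdkn2c (chromosome 4, 109660876 to 109667189, minus strand), which encodes p18, had its highest levels at dpc8 in every zone. In zone 1 its FPKM was 5.05, 2.19 and 5.97 for NP, 6.58, 9.26 and 9.40 for dpc8, and 4.93, 4.44 and 4.63 for dpc16. In zone 2 the values were 7.37, 6.43 and 2.53, then 7.92, 9.03 and 9.37, then 3.46, 5.19 and 2.99. In zone 3 they were 4.65, 2.63 and 7.10, then 9.03, 9.77 and 9.50, then 6.57, 5.65 and 6.07. The 3 dpc8 libraries lay above the 3 NP and the 3 dpc16 libraries of the same zone in each of the 3 zones, and the highest dpc16 library of any zone (6.572 FPKM) was just below the lowest dpc8 library (6.577 FPKM).

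From dpc8 to dpc16 Cdkn2c fell by 0.77 log2 units averaged over zones (SE 0.19, 95% confidence interval -1.15 to -0.38, limma adjusted p = 0.00871). The ratio of dpc16 to dpc8 means was 0.555 in zone 1, 0.442 in zone 2 and 0.646 in zone 3. The 21 libraries gave the same size, -0.77, with a limma adjusted p of 0.0168. Between NP and dpc8 the log2 difference was 0.83 (95% confidence interval 0.44 to 1.21). Its unadjusted limma p was 0.000199 and its adjusted p 0.112, so it did not pass over all genes. Within single zones Cdkn2c was not called in any stage comparison. In these, the share of all genes called was 0.0309%, 0.00772% and 0.0154% between dpc8 and NP in zones 1, 2 and 3, and 2.01%, 1.51% and 1.37% between dpc16 and dpc8. Averaged over zones, at dpc16 and NP its levels differed by 0.06 log2 units (limma adjusted p = 0.901).

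The CIP/KIP inhibitors behaved unlike one another. Cdkn1a (chromosome 17, 29090976 to 29100727, plus strand), which encodes p21 and is a target of p53, varied most of the 3. Cdkn1b (chromosome 6, 134920401 to 134925513, plus strand), which encodes p27, varied least of the 10 members. Their promoters are shown because they belong to the inhibitors of widest and narrowest range in these libraries. Both are RefSeq sequences on GRCm38.p6, of 120 bases 5′ to 3′, at chr17:29090856-29090975 on the plus strand for Cdkn1a and chr6:134920281-134920400 on the plus strand for Cdkn1b. The Cdkn1a sequence belongs to the first of 2 start sites in the table. Capitals mark a p53 element in it, and a GC box (GGGCGG) and a CCAAT box in Cdkn1b.
Cdkn1a: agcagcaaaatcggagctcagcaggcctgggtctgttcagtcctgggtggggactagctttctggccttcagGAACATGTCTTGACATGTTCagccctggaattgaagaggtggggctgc
Cdkn1b: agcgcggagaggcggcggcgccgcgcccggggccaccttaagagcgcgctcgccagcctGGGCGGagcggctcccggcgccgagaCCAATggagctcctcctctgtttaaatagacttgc

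The windows of 250 bases before 32851 start sites were searched on both strands, and 5 of the 10 members, with 8 start sites, were found in the sequence table. A p53 element of 20 bases with at most 1 mismatch was present in 0.0761% of windows, the GC box in 32.7% and the CCAAT box in 33.8%. The window of the first Cdkn2c start site held 1 E2F core (TTCCCGC, or TTGGCGC, or also TTCGCGC, and likewise TTGCCGC), which 7.89% of windows hold, and 3 GC boxes. The window of the second Cdkn1a start site held 2 GC boxes and 0 p53 elements. The Ccne1 window held 4 GC boxes. The E-box CACGTG (6.02% of windows) and the TCF core CTTTGAT or CTTTGTT (8.06%) were in none of the 8 member windows. A match of letters does not show that a factor binds.

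Cdkn1a was 33.6 to 169.7 FPKM in the 6 libraries with Y-linked FPKM and 0.556 to 19.3 in the 21 others, without overlap. In the 21 libraries it was 0.556 to 16.2 FPKM in NP (median 6.67), 1.13 to 17.9 in dpc8 (median 3.18) and 8.08 to 19.3 in dpc16 mice (median 13.8). The dpc16 libraries thus had the highest median, and none of them was as low as the lowest NP and dpc8 libraries. Averaged over zones, the log2 difference between dpc16 and NP was 1.48 in the 21 libraries (SE 0.50, limma adjusted p = 0.0517) and 1.32 in all 27 (SE 0.84, limma adjusted p = 0.378), and neither passed the threshold. Against dpc8 the 21 libraries gave 1.44 log2 units (limma adjusted p = 0.0547). In zone 3 all 3 dpc16 libraries, at 10.4, 16.2 and 124.6 FPKM, lay above the dpc8 libraries at 2.66, 4.50 and 1.13. The difference was not called in the 27 libraries (limma adjusted p = 0.3965).

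Cdkn1b was between 7.66 and 14.4 FPKM in all 27 libraries. Its group medians differed by at most 1.27-fold, and the log2 difference averaged over zones was 0.01 between dpc8 and NP (95% confidence interval -0.27 to 0.29) and -0.03 between dpc16 and NP (-0.31 to 0.25). Cdkn1c (chromosome 7, 143458339 to 143461050, minus strand), which encodes p57, was 5.98 to 50.4 FPKM in the 6 libraries with Y-linked FPKM and 0.495 to 8.59 in the others. The values of 50.4 and 26.7 came from zones 2 and 3 of dpc16 replicate 3, against 0.885 to 1.98 and 0.495 to 1.15 in the other libraries of those groups. Neither gene was called in a stage or zone comparison. Among the summed FPKM of the CIP/KIP inhibitors in the 21 libraries, the share of Cdkn1a was 4.65% to 53.4% (median 30.9%) in NP, 10.2% to 53.3% (median 16.5%) in dpc8 libraries and 32.4% to 56.5% in those of dpc16, and the median share of Cdkn1b was 46.3%, 70.1% and 41.6%.

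**Figure D4:**
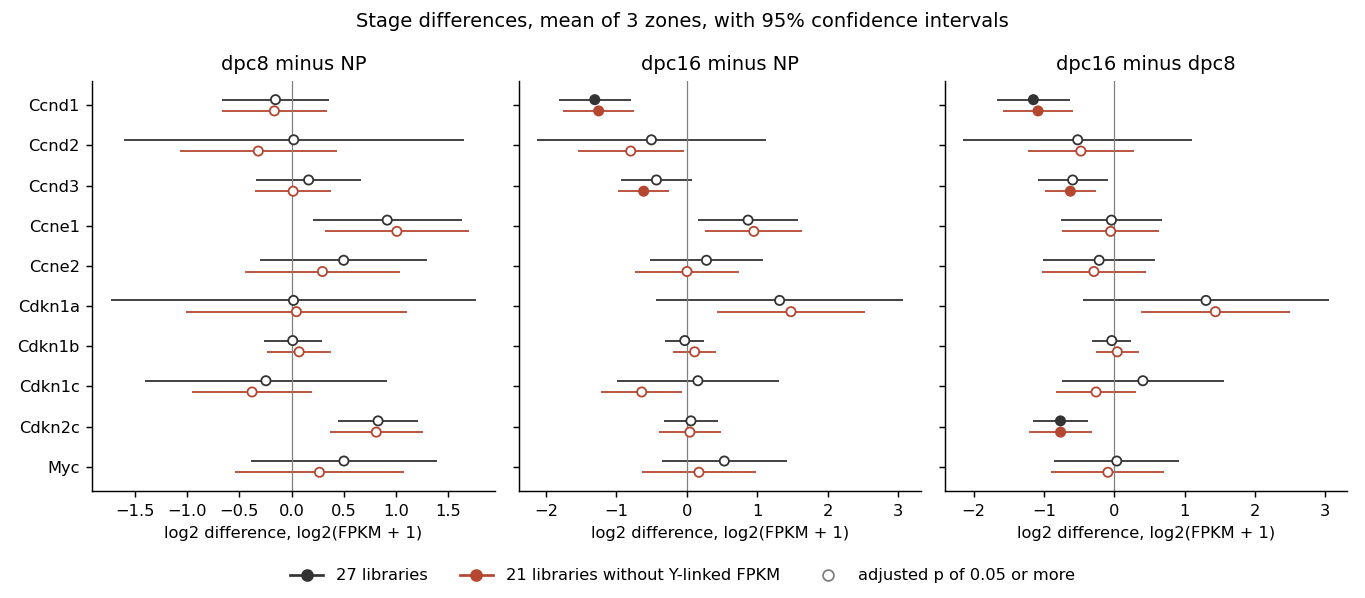
Log2 differences (horizontal axes, log2(FPKM + 1) scale) of the 10 genes (rows) between stages, averaged over 3 zones, with 95% confidence intervals, for all 27 libraries and for the 21 without Y-linked FPKM. Filled points passed the threshold. Ccnd1 is filled at dpc16 against both other stages and Cdkn2c at dpc16 against dpc8 in both sets, and Ccnd3 is filled in the 21 libraries alone.

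Myc (chromosome 15, 61985391 to 61990374, plus strand), a transcription factor that promotes growth and G1 entry, was 1.70 to 12.1 FPKM in the 21 libraries and 4.93 to 29.5 in the 6 with Y-linked FPKM. In zone 3 its 3 dpc16 libraries, at 6.70, 6.64 and 20.0 FPKM, lay above the NP libraries, at 3.29, 4.93 and 5.40. Averaged over zones, the log2 difference from NP was 0.50 at dpc8 (95% confidence interval -0.39 to 1.39) and 0.53 at dpc16 (limma adjusted p = 0.510), and Myc was not called in any comparison.

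**Figure D5:**
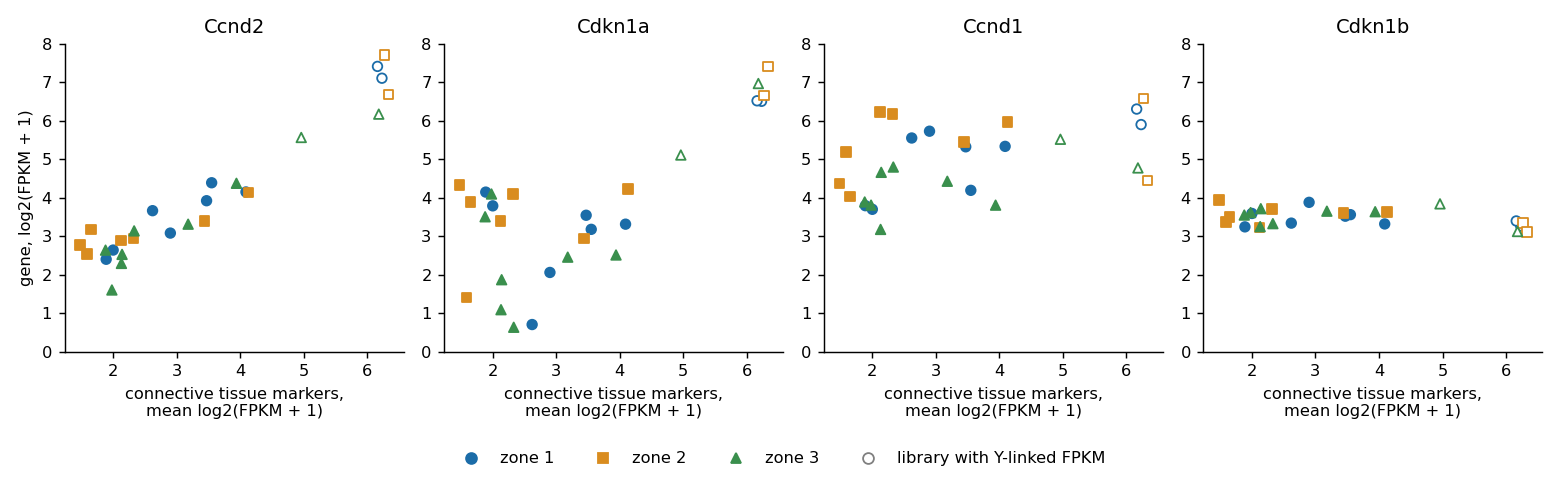
Log2(FPKM + 1) of 4 genes (vertical axes) against the mean log2(FPKM + 1) of 12 connective tissue and smooth muscle markers (horizontal axes) in 27 libraries, by zone (colour and shape). Open points are the 6 libraries with Y-linked FPKM. These lie above all others for Ccnd2 and Cdkn1a, and within the range of the rest for Cdkn1b, apart from its lowest values.

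In ranges pooled over stages and zones, the libraries with Y-linked FPKM did not stand apart for each member. Ccnd1 was 20.97 to 95.03 FPKM in the 6 libraries and 8.06 to 74.4 in the 21, Cdkn2c was 2.63 to 9.03 and 2.19 to 9.77, and Cdkn1b was 7.66 to 13.4 and 8.39 to 14.4. Within its own group of stage and zone, however, each of the 6 had the highest Ccnd1 value. The Ccnd1 medians were 51.96 FPKM in the 6 and 24.35 in the 21. The plot of 4 genes against connective tissue markers shows this difference between members. Whether these markers account for the high values of Ccnd2 and Cdkn1a was not tested.

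The partners of these genes in the G1/S transition were examined as a list. Of 32 genes encoding CDKs, E2F factors, retinoblastoma family proteins and further inhibitors and regulators, 31 were tested. Averaged over zones, 1 was higher and 1 lower at dpc16 than in NP mice, and 2 were lower at dpc16 than at dpc8, in comparisons that called 11.8% and 11.1% of all genes, with list medians of -0.08 and -0.10 log2 units beside -0.01 for all genes in both comparisons. With the 21 libraries, 3 were higher and 1 lower than in NP mice, and 3 were lower than at dpc8. The gene lower in both was Cdkn2d, the INK4 inhibitor p19, with log2 differences of -0.85 (limma adjusted p = 0.00436) and -0.91 (limma adjusted p = 0.00287). Its FPKM was 0.346 to 1.83 in the 9 dpc16 libraries (median 0.945), against 1.91 to 4.01 in NP (median 2.74) and 1.28 to 4.597 in dpc8 libraries (median 2.76). The other genes called were the E2F factors E2f3, higher than in NP by 0.52 log2 units (limma adjusted p = 0.0448), and E2f8, lower than at dpc8 by a log2 difference of -0.79 (limma adjusted p = 0.0424, not called in the 21 libraries). The list medians above rest on all 27 libraries. Summed FPKM of the 32 genes was 324.5 to 613 in the 6 libraries with Y-linked FPKM and 229.4 to 322.9 in the 21 others, without overlap.

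Genes of the later cycle phases were examined likewise. Averaged over zones, 28 of 29 genes of S, G2 and M phase had a positive log2 difference between dpc8 and NP, with a median of 0.63, but 0 passed the limma threshold with 27 libraries, where 12 had an unadjusted p under 0.05, and 6 passed with 21, where 0.108% and 0.332% of all genes were called. From dpc8 to dpc16, again averaged over zones, all 29 differences were negative, with a median of -1.12, and 10 genes were called lower (24 with the 21 libraries), against 5.69% of all genes (9.21% with the 21). The values differed by zone. In zone 3, 6 of 29 differences between dpc8 and NP were positive, with a median of -0.14 (0.29 in the 21 libraries), against 28 of 29 with medians of 1.26 in zone 1 and 0.91 in zone 2. From dpc8 to dpc16, 20 of 29 were positive in zone 3, with a median of 0.13 (-0.41 in the 21 libraries). The change from NP to dpc8 was more positive in zone 1 than in zone 3 for all 29 genes, with a median of 1.55 log2 units, but limma called 0 of them different, with 11 at an unadjusted p under 0.05, and 0 of all genes tested. This median and those of zones 1 and 2 rest on all 27 libraries. The 29 genes summed to 217.5 to 547.3 FPKM (median 245) in the 6 libraries with Y-linked FPKM and 38.32 to 303.6 (median 89.2) in the 21 others. The part of the 6 libraries in the zone values was not tested. Examples of the fall averaged over zones are Mki67, a marker of cycling cells, at -1.29 (limma adjusted p = 0.0213), Ccnb2, a mitotic cyclin, at -1.53 (limma adjusted p = 0.0110), and Top2a, which untangles replicated DNA, at -1.59 (limma adjusted p = 0.0319). Ccnd1 was also called lower from dpc8 to dpc16.

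Across the 9 groups, the ratio of the highest to the lowest group median was 5.53 for Ccnd1, 4.14 for Ccnd2, 2.31 for Ccnd3, 61.4 for Ccne1, whose lowest group median rests on few reads, 7.18 for Ccne2, 7.24 for Cdkn1a, 5.34 for Cdkn1c, 2.74 for Cdkn2c and 6.59 for Myc. When the groups were ordered by their median, neighbouring groups overlapped in all 8 steps for every member other than Cdkn2c, which had 1 step without overlap. How often such a step occurs over all genes was not determined. For 0 of the 10 members was a stage change called different between zones in any of 6 such comparisons of the 27 libraries (limma, with 0 at an unadjusted p under 0.05), in which at most 7 genes, or 0.054% of those tested, were called. Limma also called 0 in the 21 libraries, with Ccnd1, Ccnd3, Ccne2 and Cdkn1c at an unadjusted p under 0.05 in at least 1 of the comparisons, the lowest being 0.00631 for Cdkn1c in the dpc16 change between zones 1 and 3 (limma adjusted p = 0.866).

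Genes with the most similar course were sought by the Pearson correlation of log2(FPKM + 1) over the 27 libraries, which share stages, zones and the 6 libraries named above. For Ccnd1 they were Plcb3 (r = 0.782), Cdkn2d (0.768) and Hacd4 (0.766), and for Cdkn2c the first was Acot3 (0.742). In the 21 libraries the first was Skp2 (r = 0.829), followed by Plcb3 (0.805), for Ccnd1, and Zfp984 (0.821), followed by Cdk2 (0.79), for Cdkn2c. For Ccnd2 they were Serpinh1 (0.973), a collagen chaperone, Sparc (0.968) and Col5a1 (0.963), the latter a collagen gene. For Cdkn1a they were Ctps (0.932), which makes CTP, Mmp14 (0.924), a matrix metalloproteinase, and Capn2 (0.918), a calpain protease. In the 21 libraries the first was Serpinh1 (0.859) for Ccnd2 and Mmp14 (0.876) for Cdkn1a.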

How the data were processed

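RNA of microdissected liver areas was sequenced after depletion of ribosomal RNA. Trimming with cutadapt, alignment to mm10 with HISAT2 2.1.0 (reads with 1 position alone being retained) and quantification of protein-coding genes from GENCODE by Cuffdiff (Cufflinks 2.2.1) were done by the authors. They deposited FPKM of 21823 genes in 27 libraries, which were grouped by title. No read counts were used here, so depth was estimated and gives no interval. Low values lay on whole-read steps in 91.11% to 95.91% of cases.

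The 12952 genes that reached an FPKM of 1 in 3 or more libraries were tested on log2 values of the deposited FPKM plus a pseudocount of 1, with limma 3.58.1 in R 4.3.3. The fit had 9 group means, an intensity trend and robust settings, and p-values were two-sided and adjusted by Benjamini-Hochberg within each comparison. The procedure was tested on simulated data. The members and all lists were chosen with earlier results of these data known. Genes named beyond the members are members of those lists that passed the threshold or the genes most correlated with a member. The labels do not say whether libraries of different zones share a mouse, so p-values measure the spread between these libraries, which may be technical. Libraries of the same replicate number deviated together at dpc16 (9 of 9 correlations over 0.1, from 0.263 to 0.863). They did so in part of the pairs in NP (4 of 9, median r of 0.013) and dpc8 mice (5 of 9, median r of 0.29). The highest dpc16 correlation was between zones 2 and 3 of replicate 3, both with Y-linked FPKM. The number was used as a block in an alternative fit. Other alternatives were a pseudocount of 0.1, no filter, other scalings, array weights, a connective tissue covariate, the groups compared alone and leaving out libraries. Gene positions came from GENCODE vM21 on mm10.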

Additional observations from a re-analysis of the deposited data

How the results depend on the processing

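Calls for the members averaged over zones held best. Ccnd1 at dpc16 against NP (-1.36 to -1.22 log2 units) and against dpc8, and Cdkn2c at dpc16 against dpc8 (-0.88 to -0.73), were called in 10 of 10 alternative fits and in all 18 fits that left out 1 library, and none of these 3 changed direction. Among values not called, Cdkn1c at dpc16 against NP averaged over zones went from 0.16 to -0.64, and Ccnd2 in zone 2 from 1.14 to -0.10, in the 21 libraries. The number of member calls moved more. In the 9 stage comparisons within a zone it was 2, against 1 without the filter, 4 with quantile normalization, 5 with array weights, 7 with the connective tissue covariate and 1 to 4 when a library was left out. In the 3 stage comparisons averaged over zones it was 3, against 6 with array weights, 8 with the covariate, 5 in the 21 libraries free of Y-linked FPKM and 3 to 4 when a library was left out. In the 9 zone comparisons within a stage it was 1, against 0 without the filter, with the covariate, in the 21 libraries or with the groups compared alone, 2 with array weights and 0 to 2 when a library was left out. In the 3 zone comparisons averaged over stages it was 1, against 2 with array weights, the covariate or in the 21 libraries, 0 with the groups compared alone and 0 to 2 when a library was left out. With the replicate number as a block, the zone comparisons within a stage gave 0 calls with a fixed and 2 with a random block, those averaged over stages gave 2 with a random block, and with the random block Ccnd1 in zone 1 at dpc16 against NP passed (limma adjusted p = 0.0425). Differences between zones in a stage change gave 0 calls whichever library was left out. With the covariate, Cdkn1a passed at dpc16 against NP (1.79 log2 units, limma adjusted p = 0.00295), as did Ccne1 (limma adjusted p = 0.00905). The cause of these shifts was not tested. Depth limits Ccne1, which rests on few reads in NP zone 2.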

Other observations

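Single genes related to MYC and p53 were called at dpc16, in comparisons that called 11.8% (against NP) and 11.1% (against dpc8) of all genes. Averaged over zones, Ldha, a lactate dehydrogenase subunit, was higher at dpc16 than in NP mice by 1.32 log2 units (limma adjusted p = 0.00243), and of 12 MYC-responsive growth genes 3 were higher, the others being Odc1 (0.61), which makes polyamines, and Bop1 (0.55), a ribosome biogenesis factor. Odc1 and Bop1 did not pass in the 21 libraries without Y-linked FPKM. In the MYC network, of which 11 of 12 genes were tested, 1 was called in each comparison of the 27 libraries: Mlxipl, the glucose-responsive factor ChREBP, was lower at dpc16 than in NP mice (-1.41, limma adjusted p = 0.00135) and than at dpc8 (-1.59, limma adjusted p = 0.00042). Of 19 p53 pathway genes other than Cdkn1a, limma called 0 against NP, with 3 at an unadjusted p under 0.05, and 3 against dpc8, with a list median of -0.01 log2 units: Ddit4 was higher at dpc16 than at dpc8 (0.80 log2 units, limma adjusted p = 0.0489), and Bbc3 (-0.96) and Sesn1 (-0.59) were lower. These counts and the median rest on all 27 libraries. The 19 genes summed to 237.9 to 750.1 FPKM in the 6 libraries with Y-linked FPKM and 126.9 to 225.8 in the 21 others, without overlap.

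Of 12 immediate early genes, Fos (1.54 log2 units), Dusp1 (1.12) and Btg1 (0.71) were higher in zone 1 than in zone 3 averaged over stages, in a comparison that called 5.59% of all genes, and Btg1 was also higher in zone 2 than in zone 3 (0.81, limma adjusted p = 0.00159, with 1.88% of genes called). Fos and Dusp1 did not pass in the 21 libraries. Of 9 FoxO targets, 2 were called between dpc16 and NP, where 11.8% of all genes were: Igfbp1, a binding protein of insulin-like growth factors, was higher at dpc16 than in NP mice by 2.05 log2 units (limma adjusted p = 0.0241), and Bcl6 was lower (-1.37, not called in the 21 libraries). Of 13 clock genes, limma called 0 between dpc16 and NP averaged over zones, also with 0 at an unadjusted p under 0.05, and in the 21 libraries Bhlhe40 was called.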
